A study of Mus musculus with 9 samples.

Results

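Cep85 (ENSMUSG00000037443) is a mouse gene on the minus strand of chromosome 4, annotated from 134129858 to 134187112 in GENCODE M21 on the build GRCm38. It was selected on the FPKM of its last exon, which was listed in the triple knockout libraries and in no other library, so the levels of Cep85 in that group describe the choice and were not tested. Every minus-strand row placed within the gene was collected. There were 40 such rows of 840398 in the 9 libraries, holding 5 of 133642 distinct transcript events at 6 positions, and 0 rows lay on the plus strand of the same region. Each wild-type and double knockout library listed 4 rows, triple knockout replicates 1 and 3 listed 5, and triple knockout replicate 2 listed 6.

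The libraries were made from the initial segment of the epididymis, the first stretch of the duct that sperm enter after the testis, of C57BL/6 mice at 4 weeks of age. Wild-type tissue (WT) was set beside tissue lacking both Mst1 and Mst2 (Mst1/2 dKO) and tissue lacking Yap in addition (Mst1/2; Yap tKO), so all tKO libraries carry the dKO deletions too. There were 3 libraries in each of the 3 groups. Mst1 is Stk4 and Mst2 is Stk3, the kinases at the head of the Hippo pathway, and Yap is Yap1, the transcriptional co-activator that this pathway restrains. The promoter or Cre line behind the deletions, the exons removed and the number of animals per library are unstated in the labels. Whether each library is another animal is unstated too, so p-values measure the spread between these libraries, which may be technical.

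Cep85 protein sits at the centrosome, the organelle that organises microtubules and, at its core, holds the centrioles. In human cells CEP85 binds STIL and takes part in activating PLK4, the kinase that starts centriole duplication, and it restrains NEK2, the kinase that loosens the link between sister centrosomes. Annotated genes often have more than 1 end: a transcript may stop at an exon inside an intron of the longer form and then lacks everything downstream. Values here are FPKM, a read density scaled for transcript length and library size, given by the authors for transcript events: a first exon, a last exon, or a form that skips an exon. No row has a value of 0, and an event absent from a library's table is called not listed.

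The last exon of interest covers 4:134164112-134164757 and is 646 bases long. It is the end of 1 of 9 annotated Cep85 transcripts, a processed transcript of 1010 bases in 4 exons (ENSMUST00000141384.1), while the full-length coding transcript has 14 exons, 3893 bases and 761 codons. The exon lies within an intron of 10917 bases of the full-length form, 2531 bases after the exon before it and 7740 bases ahead of the next one. Another annotated form, of the class marked for nonsense-mediated decay, uses the first 130 bases of the same exon. Its reading frame, which shares 205 coding bases with the full-length form upstream, runs 26 bases into the exon and ends at a TAA stop at 4:134164729-134164731, for 77 codons in all. The 2 junctions below show where the forms part, read 5′ to 3′ on the minus strand of GRCm38 from GENCODE M21 transcripts. The first 30 bases of both (4:134167289-134167318) end the shared upstream exon, and the capitals mark the stop codon.

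Junction into the last exon: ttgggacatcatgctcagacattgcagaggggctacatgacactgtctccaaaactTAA

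Junction into the next exon of the full-length form: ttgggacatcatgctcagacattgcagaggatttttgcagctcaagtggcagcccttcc

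The sequences divide after the shared 30 bases, so a read across the junction separates the full-length form from the forms that use the exon. The exon has a GC content of 48.9%, and the hexamer AATAAA, the usual signal for 3′ end cleavage, occurs once in it, starting at base 626, so that 21 bases run from its first base to the exon's end.

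**Figure D1:**
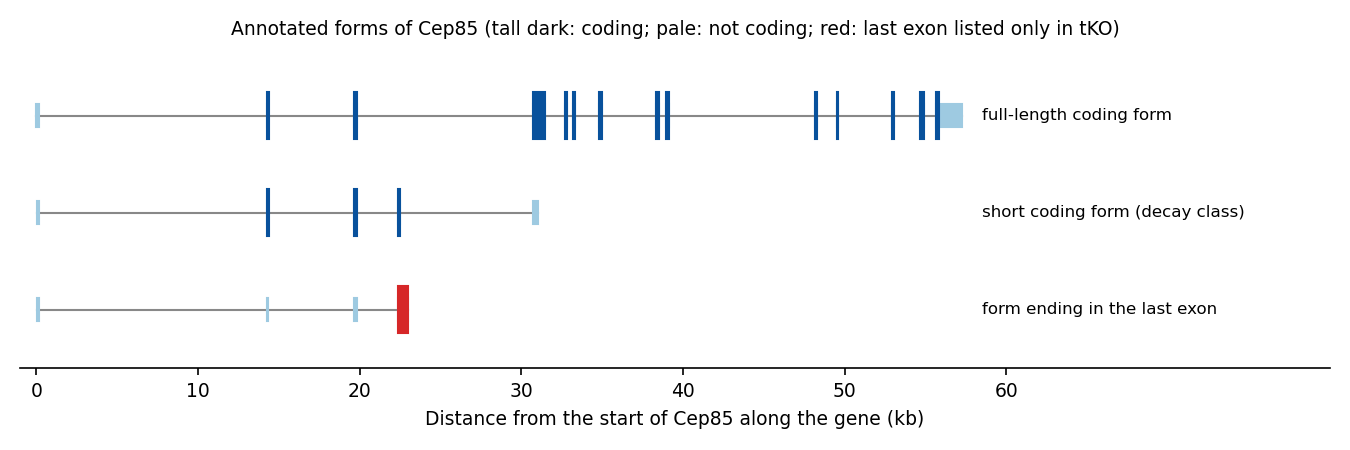
Exons of 3 annotated Cep85 forms against distance from the start of the gene in kb, with coding exons tall and dark, non-coding exons pale and the last exon listed only in tKO in red. The red exon of 646 bases lies in an intron of the full-length form, so the form that ends there lacks all exons to its right.

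The form ending in this exon shares its first exon with the full-length form. The promoter of Cep85 in RefSeq (chr4:134187036-134187335, minus strand, GRCm38.p6, 250 bases before to 50 after the start) is shown because that annotated first exon starts within it. Whether the first-exon values below arise from it was not tested. Capitals mark ATTGG, which is the CCAAT box read on the other strand.

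Cep85 promoter: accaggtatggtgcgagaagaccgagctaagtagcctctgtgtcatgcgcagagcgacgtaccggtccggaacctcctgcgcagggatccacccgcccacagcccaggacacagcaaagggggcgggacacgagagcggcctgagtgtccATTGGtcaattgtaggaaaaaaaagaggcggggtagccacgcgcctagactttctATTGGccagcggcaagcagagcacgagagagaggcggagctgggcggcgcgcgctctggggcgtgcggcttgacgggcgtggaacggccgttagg

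CCAAT was searched on both strands and matched 2 times, and 37.9% of 27025 promoters of this length held it. GGAATG, the core motif of the TEAD factors that YAP binds, was searched in the same way and matched 0 times in this window, against 14.6% of all promoters. Neither match says that a factor binds there.

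The labels were first checked at the targeted genes. Yap1 stood at 23.2, 25.2 and 26.9 FPKM in the WT libraries, 26.4, 25.2 and 27.9 in the dKO libraries and 8.86, 8.68 and 8.33 in the tKO libraries. All tKO libraries lay below all others, with a log2 fold change of -1.44 against WT (SE 0.09, limma adjusted p = 2.4e-04). Stk4 ranged over 9.001 to 10.6 FPKM (WT), 7.15 to 9.42 (dKO) and 8.22 to 9.83 (tKO), and Stk3 over 6.86 to 8.70, 6.62 to 8.31 and 6.68 to 7.08. Neither passed the test in any comparison, and since the deleted exons are not given, whole-gene values cannot check these deletions. The summed level of 8 principal cell markers of the initial segment ran from 6348 to 9057 FPKM (WT), 1678 to 1994 (dKO) and 4785 to 5778 (tKO). The sum lay mostly in Lcn8 (means of 4514, 809 and 2685 FPKM) and Rnase10 (2117, 763 and 1847). In dKO against WT 4 of the 8 were called by limma, all lower, against 3.81% of 12105 genes. Ggt1 went the other way, with means of 34.9, 38.4 and 30.4 FPKM. In bulk tissue, fewer cells of a type and less RNA per cell cannot be told apart.

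In tKO the last exon of Cep85 reached the range of abundant transcripts. It stood at 160.3 FPKM in tKO replicate 1, 254.5 in replicate 2 and 110.3 in replicate 3, a mean of 175 ± 73.2 FPKM (SD, n = 3). It was not listed in any of the 3 WT or 3 dKO libraries. The tKO libraries were thus all high, with replicate 2 the highest, and there was no overlap with the other groups. Among all last exons listed in each library it ranked 137 of 15140, 70 of 16378 and 194 of 15252, which is within the top 1.27% in every tKO library. No fold is given, since the other groups hold no value, and the depth behind a missing value is unknown because the files hold no counts.

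The main first exon (4:134186943-134187112, 170 bases), where both the full-length and the short form start, was at 2.53, 2.79 and 2.30 FPKM in WT and at 2.95, 2.47 and 3.29 in dKO. In tKO it was at 163.3, 11.9 and 113.7 FPKM. All tKO libraries exceeded every WT and dKO library, but replicate 2 was far below the other tKO libraries, the reverse of its place for the last exon. The group mean of 96.3 ± 77.2 FPKM (SD, n = 3) therefore describes none of the libraries well, against 2.54 ± 0.244 in WT and 2.90 ± 0.412 in dKO.

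The form that continues past the exon stayed low in all groups. It is listed as skipping the stretch 4:134164628-134164757, which is the 130-base exon of the decay-class transcript, and again, under the same event number and with the same values, as skipping a longer stretch of 4835 bases (4:134159923-134164757). In WT and dKO its FPKM equalled that of the main first exon. In tKO it was at 3.03, 3.85 and 3.46 FPKM, a mean of 3.45 ± 0.410 (SD, n = 3). These lie above all WT libraries and overlap the dKO range, and the last exon exceeded this form 52.9, 66.1 and 31.9 times in tKO replicates 1, 2 and 3.

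**Figure D2:**
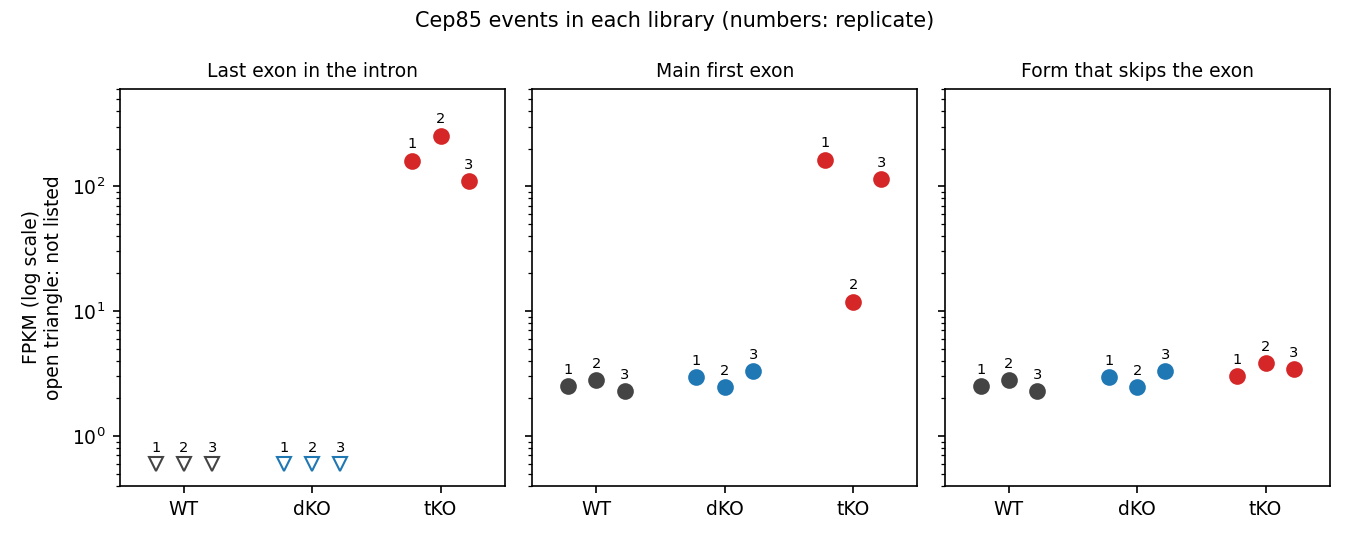
FPKM on a log scale of the Cep85 last exon, main first exon and exon-skipping form in every library, by group, with the replicate number beside each point and open triangles for libraries in which the event is not listed. The last exon has values only in tKO, from 110.3 to 254.5 FPKM, the first exon of tKO replicate 2 lies at 11.9 FPKM, and the skipping form lies between 2.30 and 3.85 FPKM in all 9 libraries.

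The main first exon was then compared with the last exon and the skipping form within each tKO library. In replicate 1 the last exon and the skipping form added up to 163.3 FPKM and in replicate 3 to 113.7 FPKM, equal to the main first exon within 1e-05 FPKM. The last exon made up 98.1% and 97.0% of the first exon there. In replicate 2 the same sum was 258.3 FPKM while the main first exon was at 11.9 FPKM, so that the last exon came to 2133% of the first exon. All Cep85 first exons together amounted to 12.4 FPKM in that library, which left 246 FPKM of the sum without a listed start. In 2 of 3 tKO libraries the sum of last exon and skipping form was therefore equal to the main first exon, and in the remaining one it was not. Values this equal may come from the same transcript estimates, which was not tested. The match is thus no separate evidence of where these transcripts start.

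**Figure D3:**
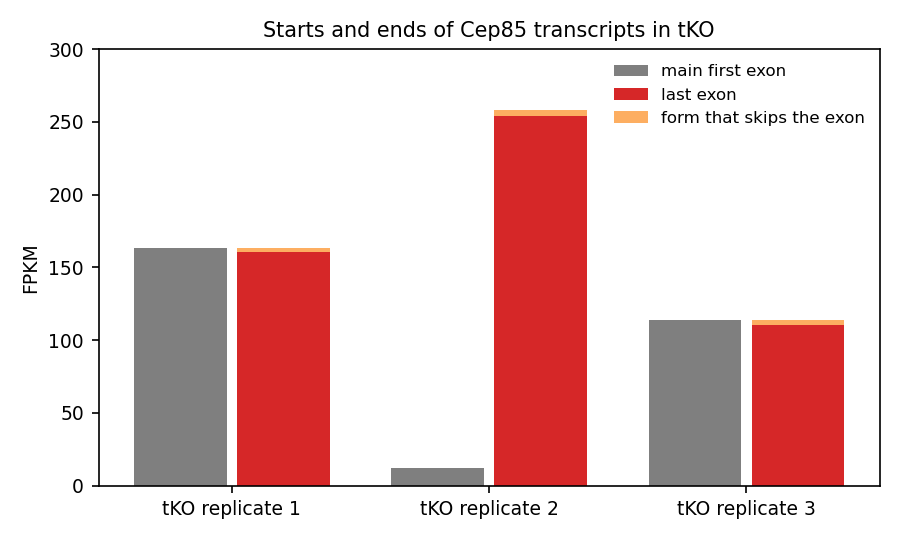
FPKM of the main first exon (grey) beside the stacked FPKM of the last exon (red) and the exon-skipping form (orange) in the 3 tKO libraries. The bars are level in replicates 1 and 3, at 163.3 and 113.7 FPKM, and differ in replicate 2, at 11.9 against 258.3 FPKM.

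The other Cep85 starts were low everywhere. A first exon inside the gene (4:134138835-134139277) was at 0.092, 0.174 and 0.154 FPKM (WT), 0.200, 0.247 and 0.371 (dKO) and 0.151, 0.375 and 0.135 (tKO), with overlapping ranges. Another near the 3′ end (4:134132591-134132642) was listed only in tKO replicate 2, at 0.114 FPKM. The annotated end of the full-length form was not listed as a last-exon event in any library.

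The comparison of dKO with WT did not enter the choice of the gene and could be tested. Neither of the 2 Cep85 events that passed the filter on low values was called, against 1.19% of the 60127 events tested, and neither had an unadjusted p under 0.05. Both events had a log2 fold change of 0.14, on the log2(FPKM + 1) scale, since their FPKM was equal in every WT and dKO library. For this comparison they are thus 1 measurement and not 2. The SE was 0.16 and the adjusted p 0.76 for the skipping form (limma), and 0.81 and 0.97 for the first exon, whose spread includes the divergent tKO libraries. In a fit of WT and dKO alone, chosen after seeing the data, the SE was 0.16 and the adjusted p 0.73 for both. The WT and dKO libraries overlapped, and a p that misses the threshold does not show that the groups were alike. The last exon passed the filter through tKO alone, and the remaining 2 events did not pass it.

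How common the pattern is was counted over all 21612 last exons listed. At 1 FPKM or more in every library of 1 group and listed in no library of the others, there were 8 last exons for tKO (0.037%), 2 for dKO (0.00925%) and 1 for WT (0.00463%). The tKO libraries also listed more events in total, from 90352 to 96368, against 85405 to 88681 in WT and 85527 to 87265 in dKO, and the part this plays in the counts was not tested. Cep85 had the highest mean of the 8. Next came a last exon listed under the mitochondrial tRNA gene mt-Tp (MT:14440-14812, minus strand), at 26.5, 30.7 and 28.3 FPKM in tKO. C230088H06Rik (4:147224737-147227435) followed at 17.1, 6.11 and 4.60 FPKM.

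Apobec3, a cytidine deaminase that restricts retroviruses, was at 6.55, 3.38 and 7.97 FPKM at its last exon (15:79914960-79915906). Mpeg1, which encodes a pore-forming protein of macrophages, was at 3.87, 7.58 and 4.05 FPKM (19:12461151-12465602). The remaining 3, Ttf1, Ddx19a and an unnamed locus on chromosome 17, lay between 1.01 and 4.62 FPKM. At a floor of 10 FPKM only Cep85 and the mt-Tp event were left for tKO.

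**Figure D4:**
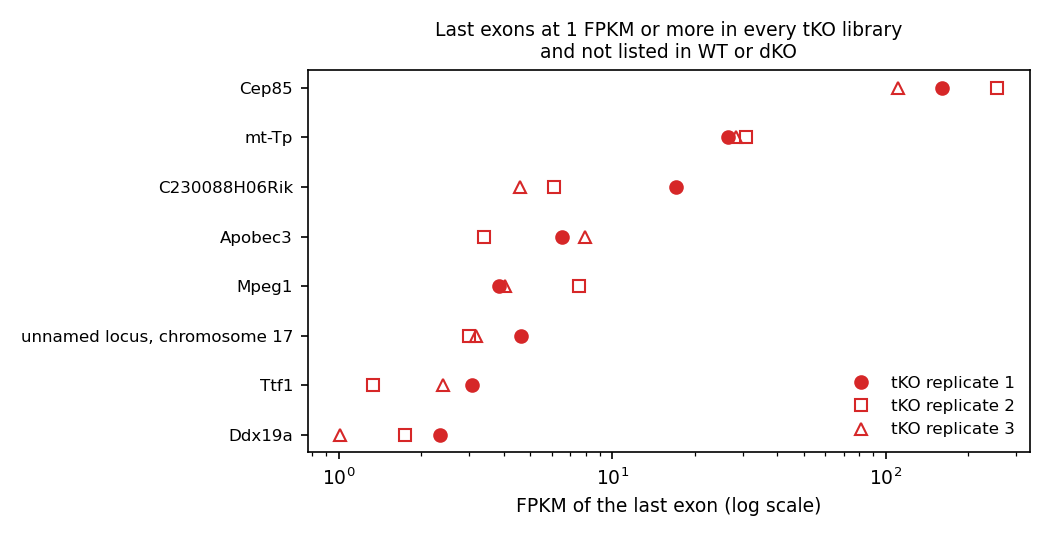
FPKM on a log scale of the 8 last exons at 1 FPKM or more in every tKO library and not listed in WT or dKO, 1 row per gene and 1 marker shape per replicate. Cep85 lies from 110.3 to 254.5 FPKM, and the next row, listed under mt-Tp, from 26.5 to 30.7 FPKM.

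Likeness to the Cep85 last exon was measured as Pearson's r of log2(FPKM + 1) over the 9 libraries, for 9674 other last exons whose tKO mean reached 1 FPKM. It is a description, since any last exon high in all tKO libraries and near 0 elsewhere scores high. The mt-Tp event came first (r = 0.998), then Atat1, the tubulin acetyltransferase (0.994), Mpeg1 (0.994), the unnamed locus 17:72895640-72898335 (0.988) and Ppp1r32 (0.977). The Atat1 exon was at 1.17, 1.34 and 1.15 FPKM in tKO and at 0.130 or less in WT and dKO, and the Ppp1r32 exon at 0.826, 1.01 and 1.29 FPKM in tKO and not listed elsewhere. Both lie far below the Cep85 exon in level.

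The sequence of the exon is not unique to Cep85. A search of all annotated transcripts found 14 other genes with at least 90% identity over at least 50 bases, 5 of them on the same strand, and 15 genes at 80% over 30 bases. The matches at 90% over 50 bases covered bases 55 to 646 of the exon and left the first 54 bases, which hold the junction and the stop codon, without such a match. A match of 50 bases could hardly lie within those 54, and only annotated transcripts were searched. Whether that stretch is unique was therefore not tested. The longest stretch that recurs as its own reverse complement at least 300 bases away was 11 bases long, starting at base 56 and again at base 592, so that it bounds 547 bases. Long terminal repeats of endogenous retroviruses end in short inverted repeats, but no repeat annotation was used, and whether this stretch is one was not tested. Reads from a copy could be placed at this exon or the reverse, and the labels name neither the aligner nor its treatment of such reads.

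**Figure D5:**
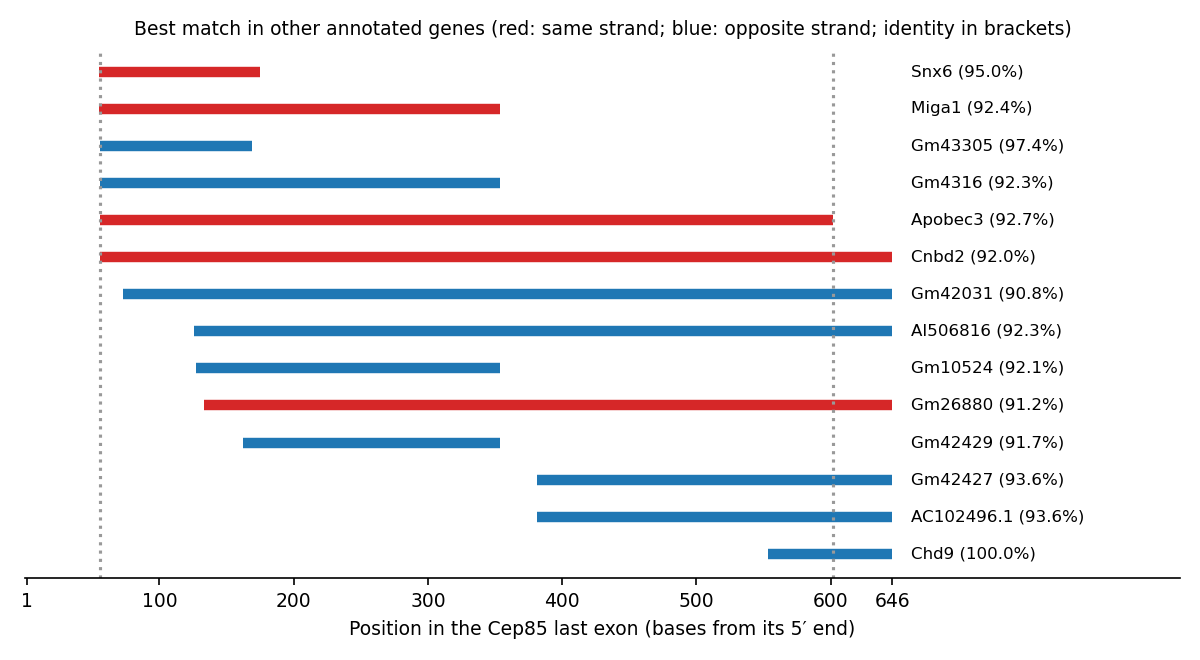
Best match in each of the 14 other genes along the 646 bases of the Cep85 last exon, red for the same strand and blue for the opposite one, with percent identity in brackets and dotted lines at the outer ends of the inverted stretch (bases 56 and 602). No match reaches into the first 54 bases, and the Chd9 match is the only one at 100%.

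Of the 14 genes, 8 had a listed value under their own gene identifier, and rows without a gene name also lay on matches in AC102496.1 and Gm10524. Chd9, which encodes a chromatin remodeller, has a last exon (8:90890977-90891521, plus strand) whose final 94 bases (8:90891428-90891521) match bases 553 to 646 of the Cep85 exon at 100% on the opposite strand. The match is bounded by the ends of the exons, so whether it runs on beyond them was not tested. That Chd9 exon was listed at 273 FPKM in tKO replicate 3, rank 64 among last exons, and in none of the other 8 libraries. Every other first or last exon of Chd9 was at 7.23 FPKM or less in all libraries. In the library with this value the Cep85 last exon was at its lowest for tKO, and Cep85 and Chd9 together came to 160.3, 254.5 and 384 FPKM in tKO replicates 1 to 3.

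Apobec3 matched 547 bases of the exon at 92.7% (15:79895563-79896093), on the same strand. Its gene value was 1.60, 1.52 and 0.500 FPKM (WT), 2.91, 1.21 and 1.53 (dKO) and 14.7, 15.8 and 24.3 (tKO), with all tKO libraries above the rest. A first exon that ends ahead of the match (15:79895023-79895189) was listed only in tKO, at 5.32, 10.2 and 12.1 FPKM. Cnbd2, matched at 92.0% over 591 bases, was at 10.7 and 0.775 FPKM in tKO replicates 1 and 2 and not listed in tKO replicate 3, with at most 0.958 in WT and 0.198 in dKO, so 1 library set it apart. The plus-strand locus at the Gm42031 match (8:85126065-85126213) was at 2.21, 3.19 and 1.58 FPKM in tKO, at 0.379 in WT replicate 1 and not listed in the other 5.

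The levels of the 4 remaining genes overlapped between tKO and at least 1 other group. Miga1, a mitochondrial fusion factor, ran from 5.65 to 7.78 FPKM (WT), 8.88 to 9.63 (dKO) and 9.29 to 12.04 (tKO). Snx6, a retromer-associated sorting nexin, ran from 18.3 to 29.3, 29.7 to 30.2 and 14.6 to 20.4 FPKM. The last exons of Miga1 and Snx6 that contain the match were at 1.51 FPKM or less in all libraries. AI506816, a non-coding transcript, was listed at 6.51 FPKM in WT replicate 1, 6.10 in tKO replicate 1 and 6.75 to 8.91 in dKO, and Gm43305 at no more than 8.59 (WT), 5.74 (dKO) and 3.84 FPKM (tKO). The unnamed last exon on a match in AC102496.1 (18:30271931-30272185, plus strand) was at 16.1, 7.32 and 18.8 FPKM in WT. It was at 15.3 and 62.5 FPKM in dKO replicates 1 and 2, not listed in dKO replicate 3, and at 5.53, 40.3 and 16.0 FPKM in tKO, so the 3 groups overlapped. The unnamed first exon on a match in Gm10524 was listed only in WT replicate 1, at 0.994 FPKM.

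Genes of the centrosome were taken as a list of 30, all of which were tested. In dKO against WT 1 of 30 was called by limma, and it was higher, against 3.81% of 12105 genes, and the median log2 fold change was 0.28 beside 0.03 over all genes. In tKO against WT 0 of 30 were called by limma, against 0.165% of all genes, and the median was 0.35 beside 0.04. In tKO against dKO 1 of 30 was called, and it was higher, against 2.11% of all genes (150 higher and 105 lower, or 177 and 77 with upper quartile scaling), and the median was 0.05 beside 0.02. An unadjusted p under 0.05 was reached by 8, 11 and 5 of the 30 in these comparisons, in that order. These are 26.7%, 36.7% and 16.7% of the list, beside 18.5%, 13.2% and 16.7% of all genes. Of them 7, 10 and 3 were higher and 1, 1 and 2 lower. The log2 fold change was above 0 for 24, 24 and 16 of the 30, and for 6571, 6961 and 6502 of the 12105 genes.

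Stil, the centriole scaffold that CEP85 binds in human cells, was at 0.468, 0.547 and 0.582 FPKM (WT), 1.55, 1.60 and 2.08 (dKO) and 1.16, 1.75 and 1.59 (tKO). It rose in dKO by 0.83 on the log2(FPKM + 1) scale (SE 0.17, limma adjusted p = 0.033), with no overlap between WT and dKO, and in tKO against WT its log2 fold change of 0.70 did not pass (adjusted p = 0.16). The dKO call was lost when any 1 of the 6 WT and dKO libraries was left out, at adjusted p from 0.0755 to 0.118. Plk4 was at 3.01, 2.64 and 2.12 FPKM (WT), 3.46, 4.11 and 4.52 (dKO) and 2.76, 4.44 and 3.37 (tKO), with a log2 fold change of 0.49 in dKO that did not pass (adjusted p = 0.18). Plk1, a mitotic kinase, was at 3.24, 3.24 and 3.01 FPKM in WT and 5.14, 6.86 and 7.79 in dKO, and its 0.85 passed only in the fit of WT and dKO alone (adjusted p = 0.12, or 0.040 in that fit).

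Cep63, which recruits Cep152 to the centriole, was at 12.8, 14.1 and 11.9 FPKM (WT), 10.9, 10.2 and 9.67 (dKO) and 19.0, 16.1 and 17.1 (tKO). Its tKO libraries lay above all others. It rose in tKO against dKO by 0.71 (SE 0.10, limma adjusted p = 0.014), a call lost without dKO replicate 2 (0.056) or dKO replicate 3 (0.058), and its 0.40 against WT did not pass (adjusted p = 0.18). Cep250, a linker protein between centrosomes, had 0.45 in tKO against dKO (adjusted p = 0.099). Cep164 went the other way, with means of 11.2 (WT), 8.29 (dKO) and 4.23 FPKM (tKO). All its tKO libraries lay below all WT libraries. Its log2 fold change of -1.26 in tKO against WT did not pass (SE 0.33, limma adjusted p = 0.18). Cep295 had 0.60 there (adjusted p = 0.20). In tKO against dKO Cep44 had -0.61 (adjusted p = 0.21) and Cep135 0.62 (adjusted p = 0.16), and neither passed. Nek2 was at 2.00, 2.20 and 1.20 FPKM (WT), 2.48, 1.98 and 3.30 (dKO) and 2.695, 3.93 and 2.96 (tKO), and passed in no comparison. Cep85l, the paralogue of Cep85, was at 0.497 to 1.02 FPKM (WT), 0.375 to 1.16 (dKO) and 0.742 to 1.32 (tKO) and passed in none.

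Markers of other cells were summed by library. None of the 4 multiciliated, 4 erythroid or 2 tested leukocyte markers was called in any comparison, and no germ cell marker passed the filter. Of all genes 3.81% were called in dKO against WT, 0.165% in tKO against WT and 2.11% in tKO against dKO. The median log2 fold change of the multiciliated markers was 0.11, 0.92 and 0.90 in that order, beside 0.03, 0.04 and 0.02 over all genes. It was 0.08, 0.40 and 0.32 for leukocyte and -0.37, 0.12 and 0.47 for erythroid markers. The 4 multiciliated cell markers together held 29.8 to 35.8 FPKM (WT), 29.004 to 41.7 (dKO) and, in tKO replicates 1, 2 and 3, 38.9, 115.8 and 68.1 FPKM. Of the 8 germ cell markers Prm1, Prm2, Tnp1, Tnp2 and Dazl were not listed in any library, and the list summed to at most 1.36 (WT), 0.688 (dKO) and 10.6 FPKM (tKO), the last mostly Ddx4 at 7.29 FPKM in tKO replicate 2. Summed leukocyte markers ran from 17.8 to 27.0, 18.6 to 30.03 and 26.6 to 36.7 FPKM, erythroid markers from 121 to 160.0, 79.9 to 138 and 127 to 138, and smooth muscle markers from 693 to 1101, 548 to 646 and 618 to 936. The lower smooth muscle sum in dKO lay mostly in Actg2, at 137, 137 and 123 FPKM against 282, 666 and 498 in WT. Actg2 fell by 1.77 on the log2 scale (limma adjusted p = 0.019). It was the only 1 of 4 called in dKO against WT, against 3.81% of all genes. Acta2 had a log2 fold change of 0.08 there and Myh11 of 0.002. In tKO Actg2 was at 506, 417 and 292 FPKM, 1.57 above dKO on the log2 scale (limma adjusted p = 0.037). No smooth muscle marker was called in tKO against WT. The part of these cells in the Cep85 values was not tested.

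The genes next to Cep85 did not pass the test. The nearest tested coding genes, Dhdds, Ubxn11 and Sh3bgrl3 on one side and Cnksr1, Zfp593 and Pdik1l on the other, gave 0 of 6 calls by limma in dKO against WT, tKO against WT and tKO against dKO, where 3.81%, 0.165% and 2.11% of all genes were called. An unadjusted p under 0.05 was reached by 0, 0 and 1 of the 6, and 1 of 6 is the share found over all genes in tKO against dKO (16.7%). Sh3bgrl3, the closest, was at 49.6, 44.0 and 49.5 FPKM (WT), 34.7, 37.5 and 44.5 (dKO) and 68.6, 76.1 and 36.7 (tKO). With all 9 libraries its log2 fold change in tKO against dKO was 0.56 (limma adjusted p = 0.28). Its replicate 3 in tKO lay apart from the other tKO libraries, and without that library the change was 0.88 (limma adjusted p = 0.023). No other setting called a neighbour. Pdik1l ranged from 2.45 to 3.76 FPKM (WT), 2.69 to 3.595 (dKO) and 3.50 to 5.01 (tKO).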

How the data were processed

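RNA was selected with oligo(dT) and made into Illumina libraries, per the labels' protocols. The authors deposited 1 table of FPKM values per library, with 1 or more rows per transcript event, per the file headers. Both bcl2fastq 2.17.1.14 and DESeq appear in the submitters' processing notes, without their roles. No source used here states the aligner, the build or the strandedness. Of 36623 first exons 81.6%, and of 21612 last exons 82.4%, met a splice site of GENCODE M21 on GRCm38, whose transcripts gave the exon sequences. The files hold no counts, so depth and counting error are unknown.

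Gene values were the sum of first-exon or last-exon events, whichever was larger in total. Events or genes reaching 1 FPKM in 3 or more libraries were taken as log2(FPKM + 1) and tested in limma 3.58.1 (R 4.3.3) with a mean-variance trend, all 9 libraries in 1 model with group as the only term. Benjamini-Hochberg adjustment ran over all events or genes, with calls at an adjusted p under 0.05. The fit was also run on simulated data for dKO against WT alone, and the outcome is not reported here. Similarity was searched with blastn 2.17.0.

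The gene, the lists and the tests were chosen with earlier results of these data known. Named were the targeted genes, 3 neighbours on each side, similarity matches, called or lowest-p centrosome genes, and the 5 last exons most like Cep85 or highest in tKO alone; further names were added after their values were seen. Alternatives were a pseudocount of 0.1, no filter, upper quartile scaling, a replicate block and leaving out each library.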

Additional observations from a re-analysis of the deposited data

How the results depend on the processing

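The mean of the Cep85 last exon in tKO ranged from 135 to 207 FPKM when 1 tKO library was left out. The log2 fold change of both Cep85 events in dKO against WT ranged from 0.07 to 0.22 and passed in none of the 14 alternatives. Same-numbered libraries did not deviate together (correlations of -0.11 to 0.01 over 9 pairs), so the numbers were not taken as pairs. With the replicate number as a block, 137 events were called in dKO against WT (713 without it), 15 in tKO against WT (91) and 40 in tKO against dKO (480), and 0 centrosome genes in dKO against WT. Without the filter these event counts were 399, 181 and 318. WT and dKO alone gave 465 events and 2 centrosome genes. Upper quartile scaling gave 381 higher and 100 lower events in tKO against dKO, beside 324 and 156.

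Leaving out 1 library gave 207 to 585, 42 to 107 and 102 to 365 events in the same order, 0 to 1, 0 to 0 and 0 to 1 centrosome genes, and 0 to 1 neighbours in tKO against dKO. Last exons of 1 group alone numbered 9 in WT, 17 in dKO and 60 in tKO without a floor, and 0, 0 and 2 at a floor of 10 FPKM. Without 1 library they numbered 1 to 7, 2 to 5 and 8 to 17. The cause of these shifts was not tested. Depth is unknown, so a missing event may lie below what a library could show.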
